A study of Homo sapiens with 16 samples.

Results

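The receptors of the EGFR family and their ligands were followed as 10 genes through 14 RNA sequencing libraries of human lung adenocarcinoma cell lines. The genes were chosen by name, not by their values: the 4 receptors EGFR, ERBB2, ERBB3 and ERBB4, and the 6 ligands AREG, EREG, HBEGF, TGFA, BTC and NRG1, out of 58735 genes listed. NCI-H1975 cells had been given chloroform parts of Flos Magnoliae, a herbal drug made of dried magnolia buds (called the fraction here), magnolin (a lignan found in those buds) or control conditions, with 4 libraries in each of the 3 groups. Untreated parental HCC827 cells gave 2 libraries. All 14 libraries carry the genotype label WT, and the labels give no dose, no exposure time and no vehicle. Both lines are, as background, known to carry mutant EGFR: that of HCC827 is activated and amplified, and that of NCI-H1975 also holds a change that weakens binding of early EGFR inhibitors. Afatinib-resistant HCC827 cells were not analysed here. Whether replicates came from separate cultures is not stated in the labels, so p-values measure the spread between these libraries, which may be technical.

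EGFR family receptors are tyrosine kinases of the cell surface that work in pairs. A ligand of the family is made as a membrane-bound precursor, is cut free by a protease, and then joins receptors into pairs that pass a signal to the RAS-MAPK and PI3K-AKT pathways. AREG, EREG, TGFA, HBEGF and BTC bind EGFR, HBEGF, EREG and BTC also bind ERBB4, and NRG1 binds ERBB3 and ERBB4. ERBB2 has no known ligand and serves as a partner, and ERBB3 has little kinase activity of its own. In lung adenocarcinoma EGFR is a frequent driver and the target of kinase inhibitors.

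Values are FPKM, reads per kilobase of gene scaled to library size, in 3 separately normalized tables. Each NCI-H1975 group has its replicates 1 and 2 in a table called set A here and its replicates 3 and 4 in another, set B. A further table holds HCC827. Reads rebuilt from FPKM and gene length came to between 18.4 M and 21.3 M for libraries of set A, between 16.0 M and 17.0 M for those of set B, and between 15.9 M and 16.4 M for HCC827. The 6 epithelial markers were all above 1 FPKM in every library, and of the lung lineage markers only the transcription factor NKX2-1 reached 1 FPKM in NCI-H1975, while NAPSA and SFTPB did so in HCC827 alone. Replicate 1 of every NCI-H1975 group stood apart in its markers, and less cleanly over all genes: its correlation with replicates 2, 3 and 4 over all genes was 0.874 to 0.932, against 0.928 to 0.966 between replicate 2 and replicates 3 or 4, and 0.967 to 0.978 between replicates 3 and 4. The first of these ranges overlaps the second: in the fraction group replicate 2 was no closer to replicates 3 and 4 (0.928 and 0.929) than to replicate 1 (0.929). The summed epithelial markers of replicate 1 were 1111 to 1313 FPKM, against 393 to 619 FPKM in the other NCI-H1975 libraries. EPCAM, an epithelial adhesion gene, was at 172 to 193 FPKM in replicate 1 and at 9.62 to 14.4 FPKM in replicate 2. The 6 markers did not all follow: the keratin KRT8 was at 119 to 134 FPKM in replicate 1 and at 118 to 171 FPKM in replicate 2, and KRT18 overlapped too, at 170 to 205 FPKM in replicate 1 and 96.3 to 174 FPKM in replicate 2. Fewer cells of a type and less RNA per cell cannot be told apart in such bulk samples.

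EGFR supplied most of the receptor RNA in every library. It lies on chromosome 7, from 55019021 to 55211628 in hg38, and its antisense partner EGFR-AS1 overlaps it. In NCI-H1975 it measured 38.8, 19.5, 33.4 and 31.7 FPKM with the fraction in replicates 1 to 4, 29.5, 20.0, 25.9 and 24.8 FPKM with magnolin, and 36.8, 14.7, 28.0 and 29.04 FPKM in controls. The 3 groups overlapped, and replicate 2 was the lowest library of each. EGFR made up 72.8 to 85.0% of the summed FPKM of the 4 receptors.

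ERBB2, the partner without a ligand (chromosome 17, 39687914 to 39730426), came second. It measured 6.36, 3.83, 5.39 and 6.42 FPKM with the fraction, 7.52, 6.66, 5.66 and 5.22 FPKM with magnolin, and 4.58, 3.38, 6.24 and 5.92 FPKM in controls. Both magnolin libraries of set A were above both controls of that set, and both of set B were below theirs. ERBB2 overlaps MIEN1 and PGAP3 on the opposite strand, and the strand setting of the counting is not given in the sources used here, so reads of the genes may be mixed.

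ERBB3, the NRG1 receptor with little kinase activity (chromosome 12, 56076799 to 56103505), was low apart from replicate 1. In that replicate it stood at 3.29 FPKM with the fraction, 3.51 FPKM with magnolin and 2.53 FPKM in the control, and in every other NCI-H1975 library it stayed between 0.263 and 0.489 FPKM. ERBB4 (chromosome 2, 211375717 to 212538841) had 0 reads in every NCI-H1975 library but control replicate 1, which had 1. A count of 0 allows up to 3 reads, so ERBB4 RNA was not detectable at this depth rather than shown to be absent.

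Among the ligands, the lead changed from library to library. AREG (amphiregulin, chromosome 4, 74445134 to 74455009) measured 71.9, 10.6, 11.2 and 12.5 FPKM with the fraction in replicates 1 to 4, 41.9, 5.22, 7.72 and 8.69 FPKM with magnolin, and 53.1, 10.1, 6.01 and 7.40 FPKM in controls. EREG (epiregulin, 74365143 to 74388751 on the same chromosome) measured 69.6, 20.7, 10.4 and 8.33 FPKM with the fraction, 30.4, 9.82, 11.1 and 12.8 FPKM with magnolin, and 72.2, 13.2, 11.6 and 10.8 FPKM in controls. TGFA (transforming growth factor alpha, chromosome 2, 70447280 to 70554193) measured 26.8, 7.16, 7.83 and 8.54 FPKM with the fraction, 20.1, 5.75, 5.93 and 6.27 FPKM with magnolin, and 21.9, 4.07, 4.07 and 5.34 FPKM in controls. For all 3 ligands, replicate 1 was the highest library of its group.

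AREG and EREG are close neighbours, with 56.4 kb between their ends in hg38, and BTC lies 289.7 kb beyond AREG. The starts of AREG and EREG are shown, of all the family's windows searched, because these neighbours were both called higher in replicate 1 than in replicate 2, as given below, and hold motif matches. The sequences run 5′ to 3′ on the plus strand and come from RefSeq on build GRCh38.p14, as chr4:74444886-74445185 for AREG and chr4:74364895-74365194 for EREG. Each holds 250 bases before the gene's start and 50 after it by the RefSeq start, which lies 2 bases downstream of the start given above, and capitals mark the motifs found.
AREG: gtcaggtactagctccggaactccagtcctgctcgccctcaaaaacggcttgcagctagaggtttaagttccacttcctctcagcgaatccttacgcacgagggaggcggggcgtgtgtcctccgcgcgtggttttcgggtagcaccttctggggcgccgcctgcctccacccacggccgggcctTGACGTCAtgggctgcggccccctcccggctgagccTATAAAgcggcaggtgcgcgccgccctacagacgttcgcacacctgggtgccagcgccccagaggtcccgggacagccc
EREG: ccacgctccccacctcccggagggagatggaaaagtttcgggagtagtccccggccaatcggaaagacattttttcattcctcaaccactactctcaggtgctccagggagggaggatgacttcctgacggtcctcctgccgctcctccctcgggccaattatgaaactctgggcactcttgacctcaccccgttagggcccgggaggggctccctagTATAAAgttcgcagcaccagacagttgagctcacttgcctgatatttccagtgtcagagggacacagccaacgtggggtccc
The motifs searched, on both strands, were the cAMP response element TGACGTCA, the AP-1-like pattern TGANTCA and the TATA box TATAAA. The N stands for any base, so TGANTCA is looser than the AP-1 site itself, which has G or C there. AREG held TGACGTCA at position -65 and TATAAA at position -29 from its start, and EREG held TATAAA at position -32. TGANTCA (as TGAGTCA and TGACTCA) and TATAAA also occurred in 1 of the 2 windows of EGFR. TGANTCA occurred in that of ERBB2 only as TGATTCA. None of the 3 motifs occurred in the windows of TGFA, HBEGF, BTC or ERBB4. TGACGTCA occurs in 1.84% of the 34943 windows of this length in the RefSeq table, TGANTCA in 7.72% and TATAAA in 11.6%. Promoter windows matched 8 of the 10 genes, and ERBB3 and NRG1 had none.

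The other 3 ligands varied less. HBEGF (heparin-binding EGF-like growth factor, chromosome 5, 140332843 to 140346631) measured 8.93, 9.31, 4.76 and 4.45 FPKM with the fraction, 10.2, 10.7, 4.37 and 5.10 FPKM with magnolin, and 8.72, 6.02, 4.29 and 3.84 FPKM in controls. BTC (betacellulin, chromosome 4, 74744759 to 74794686) measured 3.14, 1.63, 1.79 and 1.18 FPKM with the fraction, 1.62, 1.31, 1.55 and 1.46 FPKM with magnolin, and 3.22, 1.38, 1.41 and 0.782 FPKM in controls. NRG1 (neuregulin 1, chromosome 8, 31639386 to 32767959) measured 3.49, 9.59, 5.76 and 5.53 FPKM with the fraction, 2.17, 4.27, 6.23 and 6.95 FPKM with magnolin, and 3.66, 7.14, 6.79 and 7.11 FPKM in controls. HBEGF was higher in the set A libraries than in those of set B in every group, although the sets were normalized separately, and NRG1 was the one ligand with its lowest library in replicate 1 of each group.

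**Figure D1:**
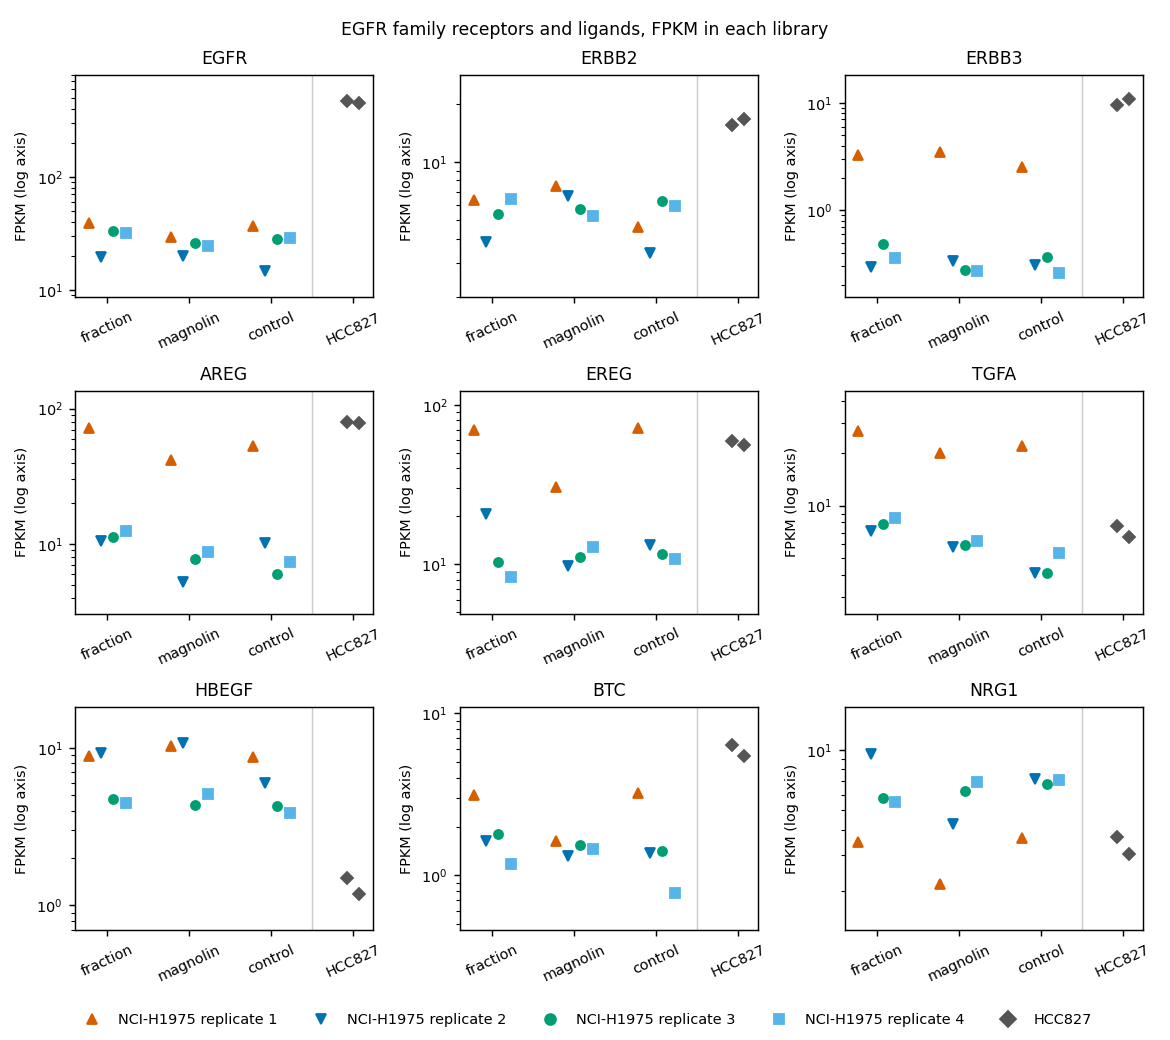
FPKM of 9 of the genes (log axes) in every library, with each point 1 library, for NCI-H1975 with the fraction, with magnolin and in control conditions, and for HCC827. Replicate 1 (upward triangles) is the highest library of AREG, EREG, TGFA and ERBB3 in each NCI-H1975 group, and HCC827 has the highest EGFR, at 472 and 447 FPKM.

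HCC827 cells held more RNA of EGFR, ERBB2 and ERBB3 than NCI-H1975 controls. EGFR measured 472 and 447 FPKM in HCC827, from 96917 to 97461 reads, and 14.7 to 36.8 FPKM in the 4 controls. It ranked 40 to 41 among 19951 protein-coding genes in HCC827 and 1022 to 3132 in NCI-H1975 libraries. ERBB2 measured 15.6 and 16.7 FPKM in HCC827, and 3.38 to 6.24 FPKM in controls. ERBB3 measured 9.62 and 10.8 FPKM in HCC827, and 0.263 to 2.53 FPKM in controls. How many of all genes separate the lines in this way was not counted, so these differences are not read as particular to the receptors. EGFR made up 94.2 to 94.9% of receptor FPKM in HCC827. ERBB4 had 2 to 3 reads in HCC827. EGFR-AS1, with up to 311 reads in a library, was small beside EGFR.

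AREG and EREG were the leading ligands of HCC827. AREG measured 79.5 and 78.4 FPKM in HCC827, and 6.01 to 53.1 FPKM in controls. EREG measured 59.4 and 56.3 FPKM in HCC827, and 10.8 to 72.2 FPKM in controls, which overlapped through control replicate 1. TGFA measured 7.63 and 6.60 FPKM in HCC827, and 4.07 to 21.9 FPKM in controls. Control replicate 1 was above HCC827 for EREG and TGFA and below it for AREG. BTC was higher in HCC827, at 6.42 and 5.48 FPKM, than in controls, at 0.782 to 3.22 FPKM. HBEGF was lower, at 1.49 and 1.19 FPKM in HCC827 against 3.84 to 8.72 FPKM in controls. NRG1, at 3.70 and 3.05 FPKM in HCC827, overlapped the 3.66 to 7.14 FPKM of controls. The tables of the lines were normalized separately, so these levels are set side by side with no test.

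As shares of the summed FPKM of the 6 ligands, AREG took 50.3 to 51.9% in HCC827. In NCI-H1975 it took 32.6 to 39.4% in replicate 1 and 14.1 to 30.9% in the other replicates. NRG1 took 1.90 to 2.25% in replicate 1 of NCI-H1975 and 2.02 to 2.34% in HCC827, against 11.5 to 20.1% in replicates 2, 3 and 4. The summed ligand FPKM was 106 to 184 in replicate 1, 37.1 to 58.9 in replicate 2, and 34.2 to 41.7 in replicates 3 and 4. For AREG replicate 1 of NCI-H1975 thus lay between its own other replicates and HCC827, and for NRG1 beside HCC827. Other ligands did not follow: BTC took 1.52 to 1.98% in replicate 1, 2.21 to 4.29% in replicates 2, 3 and 4, and 3.63 to 4.06% in HCC827, and TGFA took 13.5 to 18.9% in replicate 1, 9.71 to 21.0% in replicates 2, 3 and 4, and 4.37 to 4.83% in HCC827.

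**Figure D2:**
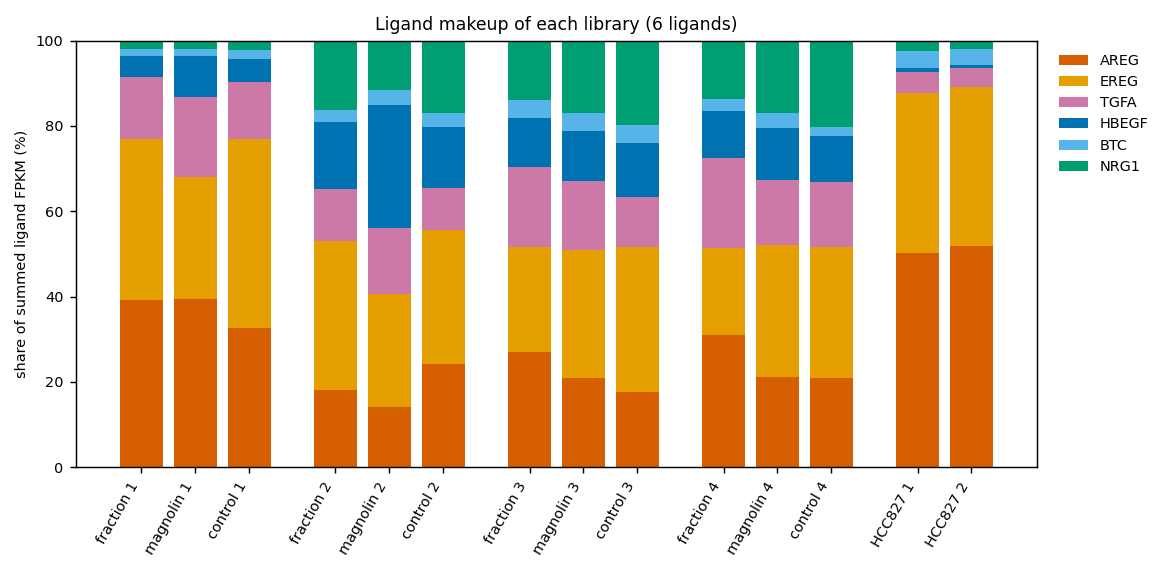
Share of each of the 6 ligands in the summed ligand FPKM (percent, bars start at 0) of each library, with NCI-H1975 libraries ordered by replicate number and HCC827 at the right. NRG1 takes 1.90 to 2.25% in replicate 1 and 11.5 to 20.1% in replicates 2, 3 and 4.

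Replicates 1 and 2 of set A were compared across the 3 treatments, a comparison chosen after replicate 1 was seen to stand apart. Its p-values therefore describe these libraries and are not separate support for a difference. Same-numbered libraries of set A deviated together (correlations 0.742 to 0.781), and the labels do not say what a number marks. If it marks a shared culture or batch, the 3 libraries of a number are not independent replicates. The test was limma on log2(FPKM + 1), which understates changes of low genes, with a treatment term, for genes with at least 1 FPKM in at least 2 libraries, and a gene was called at an adjusted p (Benjamini-Hochberg over all genes tested) under 0.05. Of the 9 family genes tested, 6 were higher and 1 was lower in replicate 1. ERBB3, among the 6, passed the filter only through its replicate 1 libraries. Over all 13103 genes 39.7% were called, 20.5% higher and 19.3% lower. The median log2 change of the 9 was 0.92, and that of all genes 0.00.

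AREG had 71.9, 41.9 and 53.1 FPKM in replicate 1 of the fraction, magnolin and control groups, and 10.6, 5.22 and 10.1 FPKM in replicate 2 (log2 change 2.57, SE 0.17, adjusted p = 3.18e-08). EREG had 69.6, 30.4 and 72.2 FPKM in replicate 1, and 20.7, 9.82 and 13.2 FPKM in replicate 2 (1.87, SE 0.19, adjusted p = 2.32e-06). TGFA had 26.8, 20.1 and 21.9 FPKM in replicate 1, and 7.16, 5.75 and 4.07 FPKM in replicate 2 (1.86, SE 0.16, adjusted p = 5.5e-07). For these 3 EGFR ligands and for ERBB3 (1.64, SE 0.17, adjusted p = 3.2e-06), replicate 1 lay above replicate 2 in every treatment, without overlap. The share of all genes that separate in this way was not counted. ERBB3 entered the test only through replicate 1, at 2.53 to 3.51 FPKM, against 0.298 to 0.337 FPKM in replicate 2. Its place among the genes tested thus depended on the libraries in which it is high. The order of AREG and ERBB3 turned with the scale: with a pseudocount of 0.1 the log2 change was 2.94 for ERBB3 and 2.70 for AREG, and with limma voom 3.28 for ERBB3 and 2.70 for AREG.

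EGFR itself rose less (0.92, SE 0.18, adjusted p = 0.000874), 1.99-fold with the fraction, 1.48-fold with magnolin and 2.50-fold in controls. BTC also rose (0.56, SE 0.17, adjusted p = 0.0162). NRG1, the ligand of ERBB3 and ERBB4, fell (-0.92, SE 0.15, adjusted p = 0.00024), so the ligand and its receptor ERBB3 moved in opposite directions. ERBB2 (0.37, SE 0.15, adjusted p = 0.0595) and HBEGF (0.12, SE 0.16, adjusted p = 0.58) did not pass the test, and without the control libraries HBEGF had a log2 change of -0.056. With no filter on low genes the calls were 4, ERBB3, AREG, EREG and TGFA, and those of EGFR, BTC and NRG1 were lost, while limma voom made 8 calls, with ERBB2 added (0.44, adjusted p = 0.0286). BTC was also not called without the fraction libraries or without the control libraries.

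**Figure D3:**
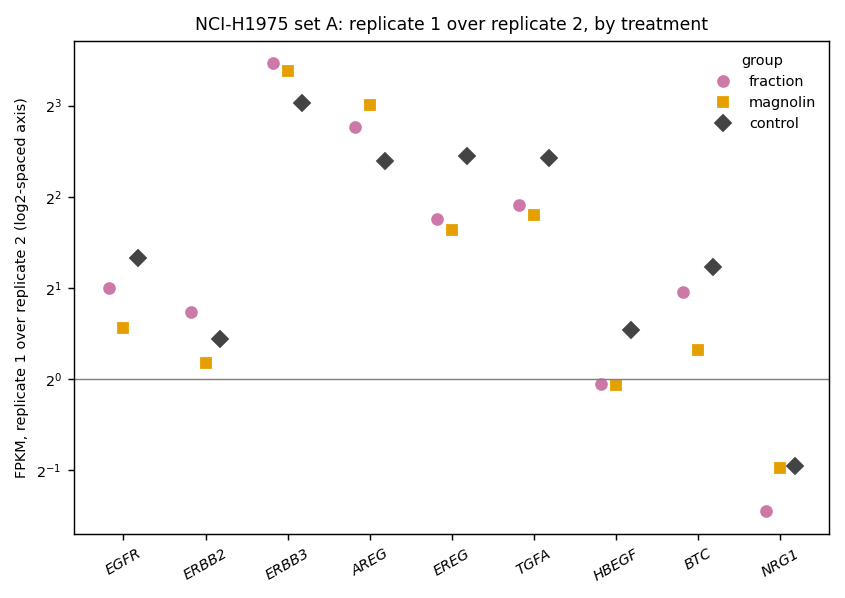
Ratio of FPKM in replicate 1 to replicate 2 of set A for 9 genes (log2-spaced axis), with a point for each treatment. ERBB3, AREG, EREG and TGFA lie above 1 in all 3 treatments, up to 11.1-fold for ERBB3, and NRG1 lies below 1 in all 3.

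Some markers moved with this difference. CD14, a monocyte gene, measured 1.42 to 2.70 FPKM in replicate 1 and 7.65 to 23.5 FPKM in replicate 2, and COL1A2, a fibroblast collagen gene, measured 0.543 to 1.14 FPKM in replicate 1 and 10.2 to 16.3 FPKM in replicate 2. The summed 4 leukocyte markers were 1.63 to 2.76 FPKM in replicate 1 and 8.03 to 23.8 FPKM in replicate 2, with 1 of the 4 at or above 1 FPKM in each library. The pan-leukocyte gene PTPRC reached at most 0.0126 FPKM in any NCI-H1975 library, the T cell gene CD3E was listed at 0 in every library, and the fibroblast gene DCN was at 0 in replicates 1, 2 and 3. The summed 4 fibroblast markers were 2.04 to 3.37 FPKM in replicate 1 and 13.0 to 19.2 FPKM in replicate 2, with at most 2 of the 4 at 1 FPKM or more. CD14 made up most of the leukocyte sums, and COL1A2 most of the fibroblast sums in replicate 2. The fibroblast gene LUM overlapped, at 0.106 to 0.209 FPKM in replicate 1 and 0.155 to 0.197 FPKM in replicate 2. The summed 3 endothelial markers were 0.134 to 0.272 FPKM in replicate 1 and 0.932 to 2.37 FPKM in replicate 2, with at most 1 of the 3 at 1 FPKM or more. Their part in the differences of AREG, EREG, TGFA and ERBB3 was not tested.

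The fraction was compared with control in NCI-H1975 to ask what it changes in these genes. In set B, where replicates lay close together, AREG and TGFA were higher with the fraction, and the receptors did not pass the test. AREG averaged 11.9 ± 0.927 FPKM with the fraction and 6.71 ± 0.985 FPKM in controls (SD, n = 2 each), a log2 change of 0.74 (SE 0.12, limma adjusted p = 0.0105). TGFA averaged 8.18 ± 0.500 FPKM with the fraction and 4.70 ± 0.893 FPKM in controls (SD, n = 2 each), a log2 change of 0.69 (SE 0.12, limma adjusted p = 0.0145). For both ligands the fraction libraries lay above both controls. The share of all genes that separate in this way was not counted, so this is not added support.

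These were 2 calls, both higher, among 8 genes of the family tested in set B, where ERBB3 and ERBB4 did not pass the filter of 1 FPKM. Over all 14673 genes 8.33% were called higher and 19.9% in either direction. The share of the 8 called in either direction lay near that of all genes, so it is not read as particular to the family. The family's median log2 change was 0.16, and that of all genes -0.01. EGFR, at 33.4 and 31.7 FPKM with the fraction and 28.0 and 29.04 FPKM in controls, did not pass (0.18, SE 0.07, adjusted p = 0.123). Its libraries did not overlap, a separation not counted over all genes. NRG1, at 5.76 and 5.53 FPKM with the fraction and 6.79 and 7.11 FPKM in controls, did not pass either (-0.26, SE 0.09, adjusted p = 0.0885). Nor did EREG (-0.25, SE 0.12, adjusted p = 0.211), the neighbour of AREG, HBEGF (0.15, SE 0.10, adjusted p = 0.369), BTC (0.25, SE 0.22, adjusted p = 0.459) or ERBB2 (adjusted p = 0.817). Without control replicate 3 neither AREG (adjusted p = 0.0627) nor TGFA (adjusted p = 0.0667) was called, and TGFA was not called with no filter on low genes (adjusted p = 0.0576). Over all alternatives the adjusted p ranged over 0.00137 to 0.0627 for AREG and over 0.00027 to 0.0667 for TGFA.

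The marker genes also differed in set B. The summed epithelial markers were 410 and 449 FPKM with the fraction and 619 and 613 FPKM in controls. CD14 measured 4.13 and 5.07 FPKM with the fraction and 32.6 and 20.9 FPKM in controls. The summed leukocyte markers were 4.38 and 5.48 FPKM with the fraction and 33.3 and 21.4 FPKM in controls, with 1 of the 4, CD14, at 1 FPKM or more in each library. The summed fibroblast markers were 9.74 and 10.2 FPKM with the fraction and 24.2 and 19.0 FPKM in controls, with 2 of 4 at 1 FPKM or more. The summed endothelial markers were 0.943 and 0.832 FPKM with the fraction and 6.24 and 4.29 FPKM in controls, with 0 of 3 at 1 FPKM or more with the fraction and 2 of 3 in controls. The mitochondrial share of reads was 8.17 and 7.04% for the fraction, against 5.84 and 5.83% for controls, and the share held by the 10 most-read genes was 9.44 and 8.71% for the fraction, against 6.91 and 6.91% for controls. Of the epithelial markers only KRT8 (-0.87, limma adjusted p = 0.000833) and KRT18 (-0.75, adjusted p = 0.00178) were called, both lower. The marker sums were lower and both read shares higher with the fraction, in which AREG and TGFA were higher. The same directions held for magnolin against control, where no family gene was called, as given below. The part of these values in the changes of AREG and TGFA was not tested.

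In set A none of the 9 genes tested was called for the fraction against control, and none of all 13103 genes was (background 0%) by limma. Limma voom likewise gave 0 of the 9, and at an unadjusted p under 0.05 there were 0. With the replicate number as a block, 0 of 9 were called beside 0.183% of all genes, and TGFA, which came nearest (26.8 and 7.16 FPKM with the fraction, 21.9 and 4.07 FPKM in controls), had an unadjusted p of 0.0272 and an adjusted p of 0.70. In a fit of both sets with a term for the set, 0 of 9 passed, beside 0.00648% of all genes, limma voom gave 0, and 0 lay under an unadjusted p of 0.05. With the block 0 of 9 passed as well, beside 0.156% of all genes, with 2 at an unadjusted p under 0.05. Without the block the fit put EGFR at a log2 change of 0.21 (SE 0.27, adjusted p = 0.839), AREG at 0.49 (SE 0.69, adjusted p = 0.854), TGFA at 0.59 (SE 0.50, adjusted p = 0.729) and HBEGF at 0.22 (SE 0.12, adjusted p = 0.563). TGFA was higher with the fraction than in the control of the same number in all 4 pairs, by 1.22-, 1.76-, 1.92- and 1.60-fold in replicates 1 to 4. AREG was also higher in all 4 pairs, by 1.36-, 1.05-, 1.87- and 1.69-fold. Numbers did not pair the libraries of set B (correlations -0.03 to 0.03), so its ratios match libraries by number only. How many of all genes agree in direction in this way was not counted. Without replicate 1 TGFA was called (0.69, adjusted p = 0.0207), as was 1.49% of all genes, and without replicate 2 AREG was called (0.64, adjusted p = 0.0451), as was 4.22% of all genes. Over alternatives the adjusted p ranged over 0.0207 to 1 for TGFA and over 0.0451 to 1 for AREG. The difference between the sets in the effect of the fraction was called for none of the 9 genes and none of all 15428 genes, with 0 of the 9 at an unadjusted p under 0.05 and 0 called by limma voom. This fit held no replicate block, and its SE was 1.53 for AREG and 1.12 for TGFA. It could miss large differences, so it does not show that the sets agree.

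Magnolin alone was set against control for the same genes. In set B none of 8 genes was called, beside 0.627% of all genes, with 1 of the 8 at an unadjusted p under 0.05 and none by limma voom. EGFR averaged 25.3 ± 0.808 FPKM with magnolin and 28.5 ± 0.713 FPKM in controls (SD, n = 2 each) (-0.17, SE 0.07, adjusted p = 0.366). AREG, at 7.72 and 8.69 FPKM with magnolin and 6.01 and 7.40 FPKM in controls, and TGFA, at 5.93 and 6.27 FPKM with magnolin and 4.07 and 5.34 FPKM in controls, lay above their controls without passing (0.26, SE 0.12, adjusted p = 0.404, and 0.32, SE 0.12, adjusted p = 0.32). HBEGF (0.18, SE 0.10, adjusted p = 0.519) and ERBB2 (-0.14, SE 0.10, adjusted p = 0.613) did not pass either. All marker sums were lower than in controls. Epithelial sums were 445 and 440 against 619 and 613 FPKM, and leukocyte sums 6.64 and 6.76 against 33.3 and 21.4 FPKM. CD14 (-1.90, limma adjusted p = 0.0263), KRT8 (-0.53, adjusted p = 0.0276) and KRT18 (-0.51, adjusted p = 0.0402) were called lower. Mitochondrial read shares were 6.40 and 6.38% against 5.84 and 5.83%, and those of the 10 most-read genes 7.55 and 7.54% against 6.91 and 6.91%.

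In set A none of 9 was called for magnolin, as of all genes (background 0%), with 0 of the 9 at an unadjusted p under 0.05 and 0 called by limma voom. With the replicate block 5 of the 9 had an unadjusted p under 0.05 and 0 passed, beside 0.992% of all genes. EREG, at 30.4 and 9.82 FPKM with magnolin and 72.2 and 13.2 FPKM in controls, had adjusted p = 0.116, and ERBB2, at 7.52 and 6.66 FPKM with magnolin and 4.58 and 3.38 FPKM in controls, had adjusted p = 0.089. In the fit of both sets none of 9 was called, beside 0% of all genes, with 1 of the 9 (HBEGF) at an unadjusted p under 0.05 and 0 called by limma voom. HBEGF, with a log2 change of 0.32 (SE 0.12, unadjusted p = 0.022, adjusted p = 1), was higher with magnolin in all 4 pairs of the same number, by 1.17-, 1.78-, 1.02- and 1.33-fold. Set B libraries were matched by number only, and the share of all genes with such agreement was not counted. The difference between sets in the magnolin effect was called for none of the 9 genes, with 1 of them, ERBB2, at an unadjusted p under 0.05 and 0 called by limma voom. With an SE of 1.53 for AREG and 1.13 for EREG, this fit without the block could also miss large differences.

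The fraction and magnolin, which share these controls, were also compared with each other in set B. EGFR and AREG were higher with the fraction. EGFR measured 33.4 and 31.7 FPKM with the fraction and 25.9 and 24.8 FPKM with magnolin (log2 change 0.35, SE 0.07, limma adjusted p = 0.0283). AREG measured 11.2 and 12.5 FPKM with the fraction and 7.72 and 8.69 FPKM with magnolin (0.48, SE 0.12, limma adjusted p = 0.0473). Neither overlapped. These were 2 of 8 genes called, beside 5.55% of all genes called higher and 14.9% in either direction. With so few genes, this share is not read as particular to the family. The summed epithelial markers were 410 and 449 FPKM with the fraction and 445 and 440 FPKM with magnolin, and the summed leukocyte markers 4.38 and 5.48 FPKM with the fraction and 6.64 and 6.76 FPKM with magnolin. The epithelial sums hide opposite changes. CDH1 (0.45, limma adjusted p = 0.0476), EPCAM (0.44, adjusted p = 0.0409) and KRT7 (0.44, adjusted p = 0.0409) were called higher with the fraction. KRT8 was called lower (-0.34, adjusted p = 0.0198). The fibroblast markers summed to 9.74 and 10.2 FPKM with the fraction and 15.2 and 14.8 FPKM with magnolin, and the endothelial markers to 0.943 and 0.832 FPKM with the fraction and 1.69 and 1.47 FPKM with magnolin. The mitochondrial share of reads was 8.17 and 7.04% for the fraction and 6.40 and 6.38% for magnolin, and that of the 10 most-read genes 9.44 and 8.71% for the fraction and 7.55 and 7.54% for magnolin. The part of these values in the differences of EGFR and AREG was not tested.

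TGFA (0.37, SE 0.12, adjusted p = 0.0964), EREG (-0.33, SE 0.12, adjusted p = 0.124) and NRG1 (-0.19, SE 0.09, adjusted p = 0.185) did not pass. The calls of EGFR and AREG were less firm than those of the ligands against control: with no filter neither was called, and neither was called with the 2 groups alone or when either control library or either magnolin library was left out. AREG was not called without fraction replicate 3 (adjusted p = 0.0508), where EREG was called lower (adjusted p = 0.0403), nor without fraction replicate 4 (adjusted p = 0.124). Over alternatives the adjusted p of EGFR ranged over 0.00127 to 0.181 and that of AREG over 0.0175 to 0.193. AREG was higher with the fraction than with magnolin in all 4 pairs, by 1.72-, 2.03-, 1.45- and 1.44-fold, and TGFA likewise by 1.34-, 1.24-, 1.32- and 1.36-fold. Here too, set B libraries were matched by number only, and the share of all genes with such agreement was not counted. In set A none of 9 was called (background 0%), limma voom gave none and none lay under an unadjusted p of 0.05, and with the replicate block none was either, beside 0.183% of all genes, with AREG at adjusted p = 0.152 and EREG at adjusted p = 0.0745. In that block fit of set A 4 of the 9 lay under an unadjusted p of 0.05. In both sets together none of 9 was called, beside 0% of all genes, limma voom gave 0, and 0 lay under an unadjusted p of 0.05. With the block limma called none of 9 either, beside 0% of all genes, and 2 lay under an unadjusted threshold of 0.05, AREG (adjusted p = 0.466) and TGFA (adjusted p = 0.622).

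**Figure D4:**
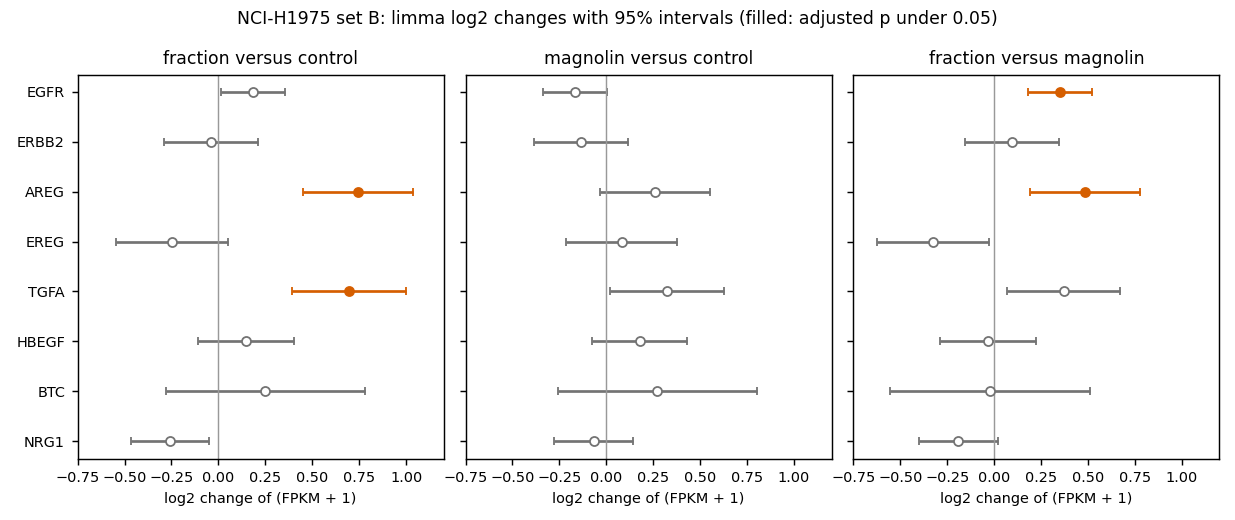
Log2 change of FPKM + 1 with 95% intervals (limma, set B, n = 2 each group) for 8 genes, in the fraction against control, magnolin against control and the fraction against magnolin. Filled points have an adjusted p under 0.05: AREG (0.74) and TGFA (0.69) against control, and EGFR (0.35) and AREG (0.48) against magnolin, with none for magnolin against control.

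Other genes of the pathway were looked at in lists. The 5 other ligands, EGF, EPGN, NRG2, NRG3 and NRG4, were too low to test in any comparison. Of 4 genes for ligand release, in set B RHBDF1, an inactive rhomboid that helps bring the sheddase ADAM17 to the surface, was higher with the fraction than in control (6.98 and 7.13 FPKM with the fraction, 4.34 and 4.01 FPKM in control, log2 change 0.64, SE 0.09, adjusted p = 0.00816) and ADAM10, a sheddase, was lower (10.5 and 9.25 FPKM with the fraction, 14.8 and 13.5 FPKM in control, -0.48, SE 0.09, adjusted p = 0.0177). Against magnolin the same genes were called in the same directions (0.72 and -0.44). No other gene of this list was called in set B, where 19.9% of all genes were called against control and 14.9% against magnolin.

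Of 9 genes of receptor turnover and feedback, RNF41, a ubiquitin ligase for ERBB3, was higher with the fraction than in control in set B (8.56 and 8.56 FPKM with the fraction, 5.76 and 5.64 FPKM in control, log2 change 0.51, SE 0.07, adjusted p = 0.00714). LRIG1, a membrane protein that promotes loss of EGFR family receptors, was lower (16.6 and 17.5 FPKM with the fraction, 27.1 and 26.5 FPKM in control, -0.63, SE 0.07, adjusted p = 0.00393). No other gene of the 9 was called there, beside 19.9% of all genes, so the share of the list lay near that of all genes. LRIG1 and CBLC, a ubiquitin ligase, also set replicate 1 apart from replicate 2: LRIG1 measured 2.42 to 2.80 FPKM in replicate 1 and 16.0 to 17.4 FPKM in replicate 2 (log2 change -2.25, adjusted p = 2.73e-08). CBLC measured 13.0 to 28.2 FPKM in replicate 1 and 0.960 to 1.64 FPKM in replicate 2 (log2 change 3.26, adjusted p = 2.43e-09). Of this list CBLB (-0.49), SOCS5 (-0.39) and ERRFI1 (0.43) were also called between these replicates, beside 39.7% of all genes. HCC827 had LRIG1 at 0.198 and 0.271 FPKM and CBLC at 16.3 and 16.4 FPKM. Replicate 1 thus lay on the HCC827 side of replicate 2 for both, as it did for SOCS5 and ERRFI1. CBLB did not follow: HCC827 lay above its replicate 1 range of 0.422 to 0.775 FPKM and reached into its replicate 2 range of 0.997 to 1.72 FPKM. The share of all genes with replicate 1 on the HCC827 side was not counted.

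Set B called 4 of 23 signal relay genes tested for the fraction against control, 1 of them higher and 3 lower, a share near the 19.9% of all genes called there. The kinase MAP2K1 was higher (0.42, SE 0.10, adjusted p = 0.0303), and the kinase MAPK3 (-0.67, SE 0.08, adjusted p = 0.00415), the GTPase NRAS (-0.49, SE 0.07, adjusted p = 0.00865) and the adaptor SHC1 (-0.41, SE 0.10, adjusted p = 0.042) were lower. The median log2 change of the 23 was -0.08. With magnolin none of the 4, 9 and 23 genes tested in these lists was called in set B, where 0.627% of all genes were.

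Genes whose levels ran most like EGFR and AREG over the 12 NCI-H1975 libraries were found by Pearson correlation of log2(FPKM + 1), centred within each table, among 9617 protein-coding genes with a mean of at least 2 FPKM. For EGFR they included MGLL (r = 0.974) and SLC9A7 (r = 0.969). For AREG they were ODC1 (r = 0.990), AXL (r = 0.987) and ADORA2B (r = 0.983). The libraries share the separation of replicate 1 from replicate 2: ODC1, for example, measured 192 to 254 FPKM in replicate 1 and 71.2 to 109 FPKM in replicate 2. These values describe the libraries and were given no p.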

How the data were processed

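RNA sequencing of 14 libraries was read from 3 gene tables in which the authors deposited FPKM. Per the labels' protocols, RNA quality was checked on an Agilent bioanalyzer and libraries were made with NEB reagents. The build is hg38 per the submitters' processing notes, with aligner, counter and strand setting not given in the sources used here. All 58735 gene identifiers matched GENCODE coordinates in hg38. The HCC827 table also holds 2 columns whose names differ from those of the labels; they were left out, and afatinib-resistant cells are not analysed here.

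Reads rebuilt as FPKM times gene length came out whole within 0.05 for 100% of values up to 2000 reads, and served only as an alternative. The test was limma 3.58.1 in R 4.3.3 on log2(FPKM + 1), with a trend on mean level, for genes with at least 1 FPKM in at least 2 libraries, adjusted by Benjamini-Hochberg over all genes tested and called under 0.05. The 3 groups of a set shared their spread. Joint fits held a term for the set, and the comparison of replicates 1 and 2 a term for treatment. The steps were tested on simulated data.

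Same-numbered libraries deviated together from their group means in set A (correlations 0.742 to 0.781) and over both sets (0.290 to 0.840), and not in set B (-0.03 to 0.03). Over both sets, libraries of a set share its offset from the group mean, so that range does not show pairing by number. The labels do not say what a number marks. Alternatives were a pseudocount of 0.1, no filter, median-ratio rescaling, limma voom on rebuilt reads, a replicate block, the 2 groups alone and leaving out libraries. The members and lists were chosen with earlier results of these data known. Named were all members, up to 4 called genes per list and comparison, and the 3 genes most like EGFR and AREG, of which 1 is not reported here.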

Additional observations from a re-analysis of the deposited data

Results flagged for a closer look

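In 13 of 30 groups of 4 NCI-H1975 libraries (1 gene in 1 treatment), replicate 1 stood far from the other 3 libraries by Dixon's criterion. Chance would flag about 1 group in 20 if groups were independent, but the same libraries recur in the groups of every gene. Groups of other genes were not searched, and limma called 39.7% of all genes between replicates 1 and 2 of set A. The count is thus not read as particular to these genes. The ERBB4 groups with the fraction and with magnolin, at 0 in every library, could not be flagged. The 4 libraries of a group come from 2 separately normalized tables. Replicate 1 was the high library of ERBB3 at 3.29 FPKM with the fraction, 3.51 FPKM with magnolin and 2.53 FPKM in the control, and of AREG at 71.9, 41.9 and 53.1 FPKM in the same groups. It was also the high library of TGFA, at 26.8 FPKM with the fraction, 20.1 FPKM with magnolin and 21.9 FPKM in the control, and of EREG, at 30.4 FPKM with magnolin and 72.2 FPKM in the control. ERBB4 was listed at 0.00392 FPKM in control replicate 1, from 1 read, and at 0 in the other controls, where any lone value above 0 is flagged. NRG1 was the exception in direction, with control replicate 1 the low library at 3.66 FPKM.

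The effect of magnolin on ERBB2 went opposite ways in the sets: every magnolin library was above every control in set A and below every control in set B. The share of all genes that do so was not counted. Set B minus set A came to -0.85 on the log2 scale, which a test of the difference put at an unadjusted p of 0.0224 and, by limma over all genes, an adjusted p of 1.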

How the results depend on the processing

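Of 105 member changes computed, 1 that is printed, HBEGF in replicate 1 against replicate 2, changed sign, to -0.056 without the control libraries, and 31 that are not printed did so under some alternative, none of them called. For the fraction against control in set B, 2 members were called, 1 with no filter and 0 to 2 when a library was left out. For both sets, the 0 called became 1 without replicate 1, TGFA, also with the replicate block (adjusted p = 0.0427; this setting was chosen after seeing the data), and ranged over 0 to 1 when a replicate number was left out. For the fraction against magnolin in set B, 2 members were called, against 0 with no filter, 1 with a pseudocount of 0.1, 0 with the 2 groups alone and 0 to 2 when a library was left out. With the replicate block 1 was called there, AREG (adjusted p = 0.0381), and EGFR was not (adjusted p = 0.0596); set B numbers did not pair the libraries, and the block changed no other member count. For replicate 1 against replicate 2, the 7 calls became 4 with no filter, 6 to 7 when a treatment was left out and 8 with limma voom, which added ERBB2. No member was called for magnolin in any alternative. With limma voom, NRG1 passed for the fraction against control (adjusted p = 0.0382) and TGFA against magnolin (adjusted p = 0.0178). The cause of these changes was not tested, except that leaving out libraries or filters alters the number of libraries or genes tested. Planned fits of resistant HCC827 cells were not run. ERBB3 and ERBB4 fell below the 1 FPKM filter in set B; with no filter ERBB3 was tested there and not called (adjusted p = 0.61 for the fraction against control).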
